A study of Mus musculus with 4 samples.

Results

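The 10 genes described here encode the 3 peroxisome proliferator-activated receptors (PPARs) and proteins that supply fatty acids to a cell, store them as triglyceride and release them again. They are *Pparg*, *Ppard*, *Ppara*, *Cd36*, *Lpl*, *Dgat1*, *Dgat2*, *Plin2*, *Pnpla2* and *Mgll*. They were chosen by name for these roles and not by a measured value, though with earlier results of these data known. They make up 10 of the 19938 genes measured. RNA came from bone marrow cells of mice 5 months old, which the study calls myeloid-derived suppressor cells (MDSCs) in both genotypes. MDSCs are immature myeloid cells that restrain T cells, an activity that the arrays did not measure. 2 arrays held RNA of wild type (*lal+/+*) mice and 2 held RNA of knock-out (*lal−/−*) mice, which lack lysosomal acid lipase (LAL) in all tissues because its gene, *Lipa*, is disrupted. Both genotypes had been backcrossed to FVB/N for 10 generations, and no treatment is given for either. The labels call the cells CD11b and Gr-1 positive, whereas the study's methods describe magnetic selection with an antibody to Ly6G. The methods give more mice for the RNA than there are arrays of a genotype and do not say how the mice were pooled or assigned to arrays, so a p-value here covers only the variation among these arrays, and that variation may be technical. The comparison asks which parts of this pathway differ in expression between *lal−/−* and *lal+/+* MDSCs.

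LAL frees fatty acids and cholesterol from triglycerides and cholesteryl esters inside the lysosome, and its products can serve as, or be turned into, ligands of the PPARs. PPARs are nuclear receptors that bind DNA together with a retinoid X receptor and switch on genes of fatty acid uptake, storage and burning. Outside the lysosome, triglyceride is kept in lipid droplets and broken down by a chain of neutral lipases. In the myeloid lineage PPARγ is best known from macrophages, where it drives the scavenger receptor CD36.

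Levels are log2 expression values, so a difference of 1 is a fold of 2. A gene was called higher or lower at an adjusted p under 0.05 with a fold of at least 2. *Lipa* had a log2 level of 9.50 and 9.05 on the *lal+/+* arrays against 7.37 and 7.49 on the *lal−/−* arrays, which is a log2 fold change of -1.85 (SE 0.19, adjusted p = 0.00577). Over all genes 1482 were called higher and 625 lower, and these numbers were 2614 and 459 after shifting every array to a common median, and 2009 and 624 with the values as deposited. The median change of all genes was 0.085 on the log2 scale, 0.12 with the common median and -0.055 as deposited. Arrays of the same genotype differed by a median of 0.19 (*lal+/+*) and 0.14 (*lal−/−*) on the log2 scale. As a guide to the level of silent genes, the 95th percentile of 1035 probe sets for olfactory receptors was 6.79 in *lal+/+* and 6.29 in *lal−/−* cells. Where a called gene had a genotype mean below this level, its fold is given as a lower bound, for which each array of that genotype was set to the higher of this level and its own value. The log2 fold changes, SE and adjusted p are those of the measured values. The bound allows for the silent-gene level only. It leaves out the spread among arrays and the choice of scaling, either of which can give a smaller fold.

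Of the 10 genes, 3 were called higher in *lal−/−* MDSCs, namely *Mgll*, *Dgat2* and *Dgat1*, where 7.43% of all genes were called higher. The genes called lower were *Cd36* and *Pparg*, 2 of the 10, where 3.13% of all genes were called lower. The other 5 genes were not called. Both *lal−/−* arrays lay above both *lal+/+* arrays for 6 genes, as they did for 41.6% of all genes, and below them for 3 genes, as they did for 24.1% of all genes. The median log2 fold change of the 10 genes was 0.32, beside 0.085 for all genes tested. Each of the 10 genes is read by 1 probe set, and 6 of them lay above the level of silent genes in both genotypes. Of these 6, *Ppard* in *lal+/+* and *Pparg* in *lal−/−* lay only just above it.

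**Figure D1:**
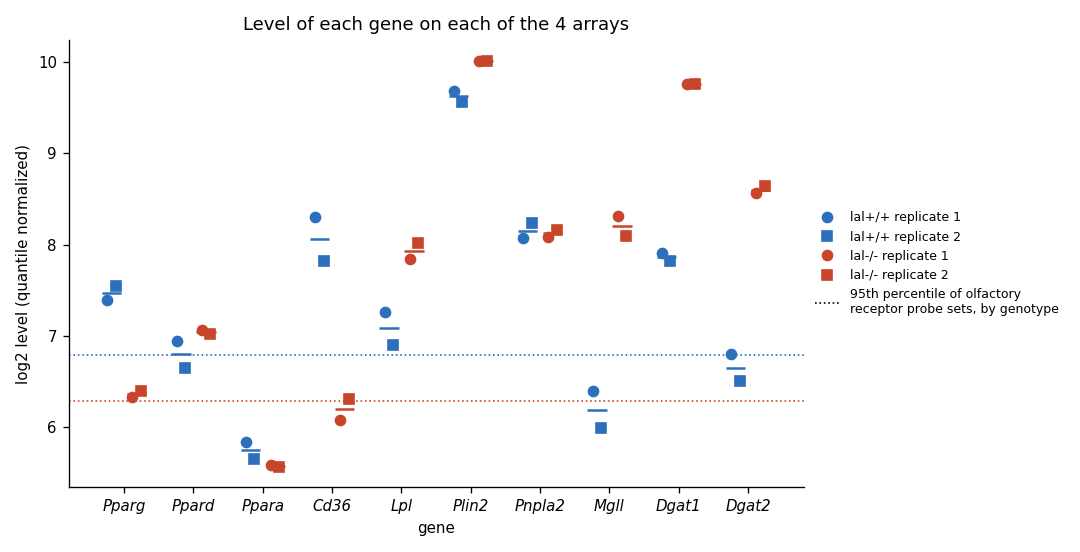
Log2 level (y axis) of the 10 genes (x axis) on the 2 *lal+/+* arrays (blue) and the 2 *lal−/−* arrays (red), with circles for replicate 1, squares for replicate 2, short bars for genotype means and dotted lines for the 95th percentile of olfactory receptor probe sets in each genotype. *Dgat1*, *Dgat2* and *Mgll* stand higher and *Cd36* and *Pparg* lower on both *lal−/−* arrays, whereas the arrays of the genotypes overlap for *Pnpla2*. The picture compares arrays for each gene, and heights of different genes cannot be set against each other.

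Among the receptors, *Pparg* was lower in *lal−/−* MDSCs while *Ppard* and *Ppara* were not called. *Pparg* encodes PPARγ, the receptor of fat storage and of the macrophage programme. Its log2 level was 7.39 and 7.54 on the *lal+/+* arrays against 6.33 and 6.39 on the *lal−/−* arrays. The genotypes were separated by more than the spread within either, and the *lal−/−* arrays lay just above the silent-gene level of 6.29. The log2 fold change was -1.11 (SE 0.13, 95% interval -1.43 to -0.78, adjusted p = 0.00704), a 2.15-fold lower level. This is close to the fold threshold, and the call was lost with the common median (log2 fold change -0.96, adjusted p = 0.00494). It was also lost without *lal−/−* replicate 1 (log2 fold change -1.04, adjusted p = 0.0602) and without *lal−/−* replicate 2 (-1.09, adjusted p = 0.0551).

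*Ppard* encodes PPARδ, a receptor found in most tissues that favours fatty acid oxidation. Its log2 level was 6.94 and 6.65 on the *lal+/+* arrays against 7.06 and 7.02 on the *lal−/−* arrays. The *lal+/+* mean lay at the silent-gene level of 6.79, with replicate 2 below it. Both *lal−/−* arrays were the higher ones, but the gap was no larger than the difference between the *lal+/+* arrays. This gave a log2 fold change of 0.24 (95% interval -0.14 to 0.63, adjusted p = 0.307). *Ppara*, the receptor of hepatic fatty acid oxidation, was below the silent-gene level in both genotypes, at 5.84 and 5.65 in *lal+/+* and 5.58 and 5.56 in *lal−/−*. Its log2 fold change of -0.18 (95% interval -0.51 to 0.16, adjusted p = 0.386) therefore says little about this receptor.

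The balance between receptors was compared within each array, where a shift of the whole array cancels. *Pparg* minus *Ppard* was 0.45 and 0.89 on the log2 scale on the *lal+/+* arrays against -0.73 and -0.63 on the *lal−/−* arrays, a difference of -1.35 between genotypes. The groups did not overlap. *Ppard* in *lal+/+* and *Pparg* in *lal−/−* cells lay at or just above the silent-gene level, so the size of this difference is not well measured. The sign on an array does not say which receptor has more RNA. With 2 arrays in each genotype the exact two-sided permutation test cannot give a p under 0.333, which is the value found here (0.444 after adjustment over the 4 pairs of genes compared in this way).

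Of the genes of fatty acid supply, *Cd36* was lower in *lal−/−* MDSCs, while *Lpl* was higher without reaching a fold of 2. CD36 is a membrane scavenger receptor that takes up long-chain fatty acids and oxidized lipoproteins. Its log2 level was 8.30 and 7.82 on the *lal+/+* arrays against 6.08 and 6.31 on the *lal−/−* arrays. The *lal−/−* mean of 6.19 was below the silent-gene level of 6.29. The change was -1.87 on the log2 scale (SE 0.21, 95% interval -2.41 to -1.33, adjusted p = 0.00661), and the level was at least 3.40-fold lower. The change of the measured values lay between -2.22 and -1.66 over the alternative settings. The bound is -1.77 on the log2 scale, and the 95% interval and the change with the common median (-1.66) reach smaller folds.

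*Lpl* encodes lipoprotein lipase, the secreted enzyme that frees fatty acids from circulating triglyceride. Its log2 level was 7.26 and 6.90 on the *lal+/+* arrays against 7.84 and 8.01 on the *lal−/−* arrays, without overlap. *Lpl* differed by 0.85 on the log2 scale (SE 0.17, 95% interval 0.40 to 1.30, adjusted p = 0.0301), a 1.80-fold higher level that passed the p threshold and not the fold threshold. *Lpl* was called higher with the common median (1.12) and without *lal+/+* replicate 1 (1.06). *Cd36* minus *Lpl* was 1.04 and 0.92 on the *lal+/+* arrays against -1.77 and -1.71 on the *lal−/−* arrays, a difference of -2.72 between genotypes (exact permutation p = 0.333, adjusted 0.444). With *Cd36* at its bound, the difference was lower by at least 2.61.

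Most markers of macrophages were lower in *lal−/−* cells, as *Pparg* and *Cd36* were, but this was not particular to macrophages. All 8 measured B cell markers were lower too. Their median log2 fold change was -3.59, beside -1.43 for markers of monocytes and macrophages. Of 13 markers of monocytes and macrophages 9 were lower in *lal−/−* cells and none was higher, and the list's summed linear level was 5590 to 6213 on the *lal+/+* arrays against 1891 to 1919 on the *lal−/−* arrays. *Mrc1*, the mannose receptor, read 4.99 and 5.37 on the *lal−/−* arrays, below the silent-gene level, and was at least 10.8-fold lower. *Ly86* fell by 3.58 on the log2 scale, and *C1qc* was at least 6.24-fold lower. Of 7 markers of marrow and red pulp macrophages 5 were lower, with a summed linear level of 6694 to 7090 in *lal+/+* and 1578 to 1599 in *lal−/−*, and *Spic*, a transcription factor of red pulp macrophages, was at least 12.2-fold lower. The part of macrophages or of B cells in the lower levels of *Pparg* and *Cd36* was not tested. By the study's methods, the RNA came from cells positively selected with an antibody to Ly6G. In RNA of such a preparation, fewer cells of a type and less RNA per cell cannot be told apart.

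Triglyceride synthesis showed increases without a decrease that was called. DGAT1 and DGAT2 are unrelated enzymes of the endoplasmic reticulum that both add the last fatty acid to diacylglycerol. *Dgat1* had a log2 level of 7.90 and 7.82 on the *lal+/+* arrays and 9.76 on each of the *lal−/−* arrays. The groups were far apart beside the difference of either pair of arrays. The log2 fold change was 1.90 (SE 0.12, 95% interval 1.59 to 2.20, adjusted p = 0.00275), a 3.72-fold higher level.

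*Dgat2* had a log2 level of 6.80 and 6.50 on the *lal+/+* arrays, where the mean of 6.65 was below the silent-gene level of 6.79, and 8.57 and 8.64 on the *lal−/−* arrays. It too was separated without overlap. The increase was 1.95 on the log2 scale (SE 0.15, 95% interval 1.56 to 2.34, adjusted p = 0.00350), and the level was at least 3.51-fold higher. This bound is 1.81 on the log2 scale, and the interval reaches a smaller fold. *Dgat1* minus *Dgat2* was 1.10 and 1.32 on the *lal+/+* arrays against 1.19 and 1.12 on the *lal−/−* arrays. The genotypes overlapped, with a difference of -0.054 (exact permutation p = 1). With the common median and with the values as deposited they did not overlap, and the difference was 0.17 (exact permutation p = 0.333, the smallest this design can give). These settings differ by a shift of whole arrays, which cancels here, so they give 1 result and not separate ones. Because *Dgat2* was below the silent-gene level in *lal+/+* cells, whether these enzymes changed by different amounts was not measured.

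PLIN2, the perilipin that coats droplets in most cells other than fat cells, was the droplet protein among the 10. *Plin2* read 9.69 and 9.57 on the *lal+/+* arrays against 10.01 and 10.02 on the *lal−/−* arrays on the log2 scale. Both *lal−/−* arrays were higher, by more than the spread of either genotype. A log2 fold change of 0.39 (SE 0.12, 95% interval 0.074 to 0.70, adjusted p = 0.0876) did not pass the test. Its size depended on the scaling more than that of any other of the 10 genes, since it was 0.86 with the values as deposited (adjusted p = 0.0134) and 1.04 with the common median (adjusted p = 0.00739), where it was called higher.

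Of the lipases, *Mgll* was higher in *lal−/−* MDSCs and *Pnpla2* was not called. *Pnpla2* encodes adipose triglyceride lipase (ATGL), which takes the first fatty acid off triglyceride. Its log2 level was 8.07 and 8.23 on the *lal+/+* arrays against 8.08 and 8.16 on the *lal−/−* arrays. These ranges overlapped. The log2 fold change was -0.030 (95% interval -0.36 to 0.30, adjusted p = 0.893), and its sign turned with the common median (0.42) and with the values as deposited (0.25).

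*Mgll* encodes monoacylglycerol lipase, which takes off the last fatty acid and also degrades the endocannabinoid 2-arachidonoylglycerol. It read 6.40 and 5.98 on the log2 scale on the *lal+/+* arrays, below the silent-gene level of 6.79, and 8.32 and 8.09 on the *lal−/−* arrays. The genotypes did not overlap. *Mgll* rose by 2.02 on the log2 scale (SE 0.19, 95% interval 1.52 to 2.51, adjusted p = 0.00490), and the level was at least 2.67-fold higher. *Pnpla2* minus *Mgll* was 1.68 and 2.25 on the *lal+/+* arrays against -0.23 and 0.070 on the *lal−/−* arrays, a difference of -2.05 between the genotypes (exact permutation p = 0.333, adjusted 0.444). With *Mgll* at its bound, the difference was lower by at least 1.45.

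**Figure D2:**
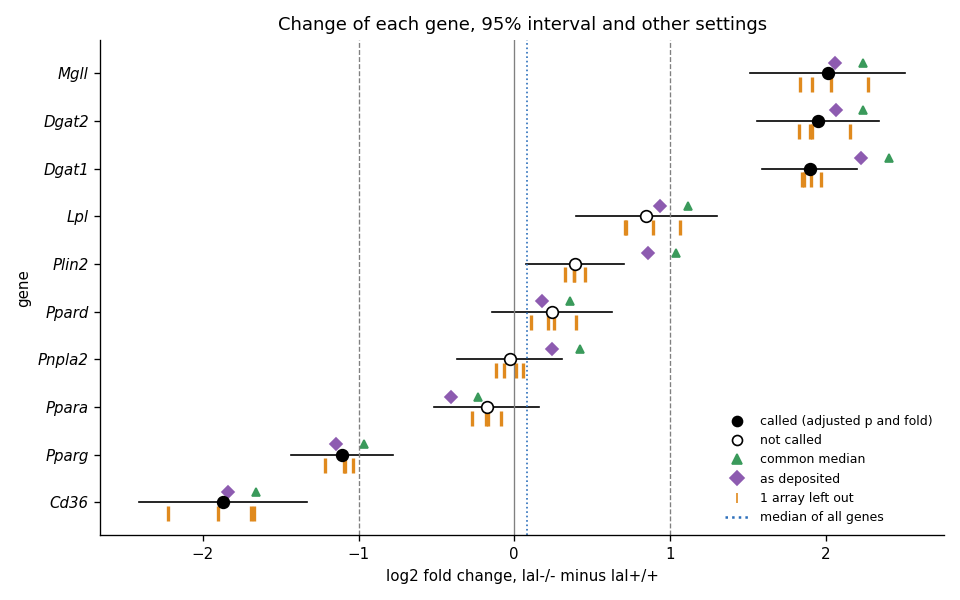
Log2 fold change, *lal−/−* minus *lal+/+* (x axis), of the 10 genes (y axis), where circles are the reported changes (filled where called) with 95% intervals, green triangles and purple diamonds the changes with the common median and as deposited, and orange ticks the changes with 1 array left out. Dashed lines mark a fold of 2 and the dotted line the median of all genes (0.085). *Mgll*, *Dgat2*, *Dgat1* and *Cd36* stay beyond the dashed lines under every setting drawn, *Pparg* crosses its line with the common median (-0.96), and *Pnpla2* changes sign between scalings.

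Neutrophil markers moved with the genes that were higher. Of 14 such markers 9 were higher in *lal−/−* cells and 1, *Csf3r*, was lower, and the summed linear level was 53540 to 55110 on the *lal+/+* arrays against 91470 to 92040 on the *lal−/−* arrays. *Ly6g*, which encodes the antigen of the selection described in the methods, rose by 2.88 on the log2 scale. The granule protein genes *Mpo* and *Prtn3*, made early in neutrophil maturation, were at least 7.98-fold and 1.60-fold higher. The part of neutrophil content or stage in the higher levels of *Mgll*, *Dgat1* and *Dgat2* was not tested. Fat cells use most of the genes described here. Of 7 adipocyte markers 1 was called, the widely expressed receptor gene *Adipor2*, which was higher. The list's summed linear level was 653.5 to 674.9 in *lal+/+* and 834.6 to 899.8 in *lal−/−*, and without *Adipor2* the other 6 markers summed to 435.2 to 490.7 and 395.7 to 432.7. 3 markers were below the silent-gene level in both genotypes. *Adipoq*, which encodes the fat cell hormone adiponectin, was among these 3 and read 4.64 and 4.66 in *lal+/+* and 5.25 and 4.74 in *lal−/−*.

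All 8 measured B cell markers were lower, with a summed linear level of 7165 to 8006 in *lal+/+* and 565.6 to 588.9 in *lal−/−*. Of 7 T cell markers 1 was higher (*Cd3d*) and 3 lower (*Cd2*, *Cd3g* and *Cd3e*), and of 5 megakaryocyte and platelet markers 2 were higher (*Itgb3* and *Ppbp*). Of 7 endothelial markers 1 was lower (*Pecam1*), and of 7 markers of eosinophils and basophils 2 were higher (*Mcpt8* and *Prg2*) and 1 lower (*Ccr3*). None of 5 erythroid and 7 stromal markers was called.

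**Figure D3:**
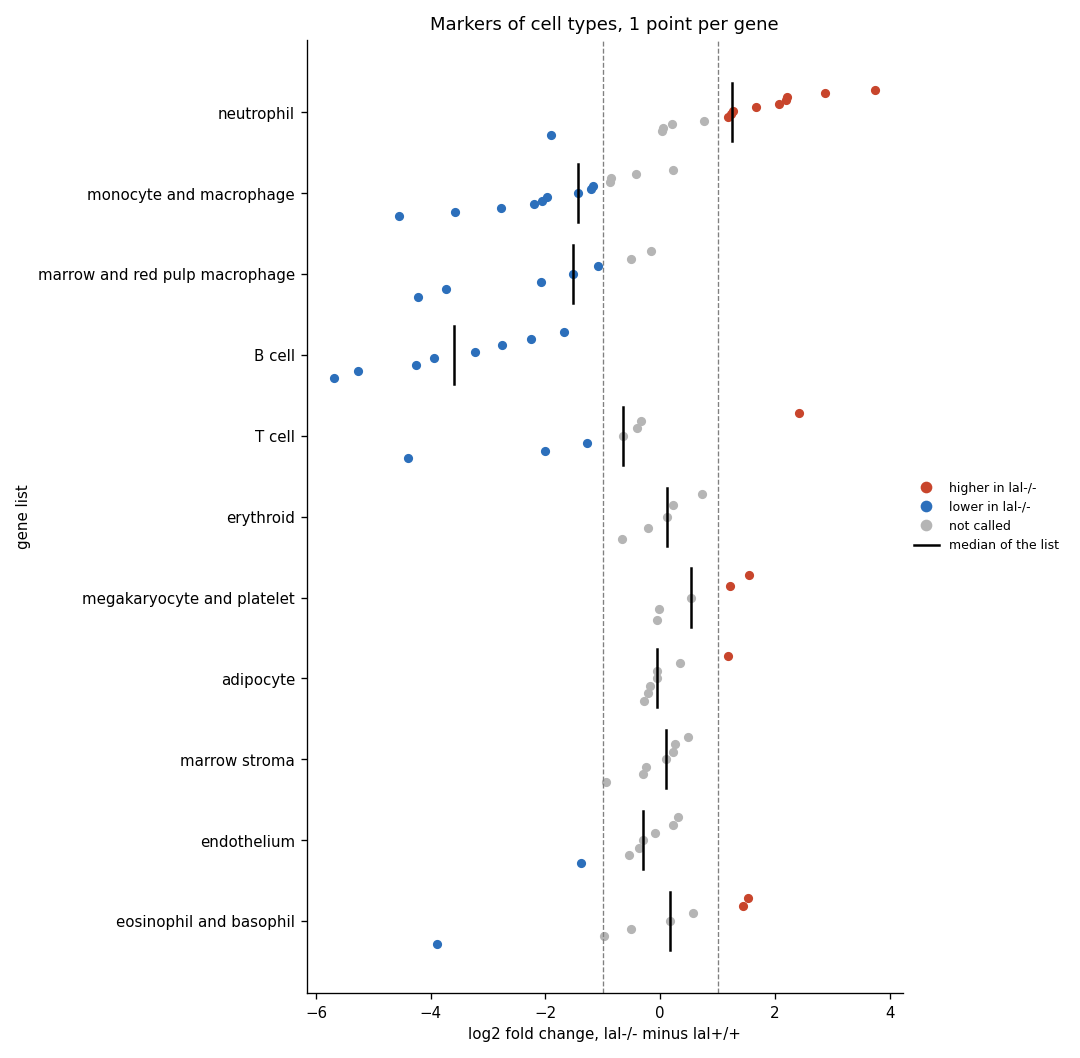
Log2 fold change, *lal−/−* minus *lal+/+* (x axis), of markers of 11 cell types (y axis), with 1 point for each gene, red where called higher, blue where called lower and grey where not called, and a black bar at the median of the list. Most neutrophil markers lie to the right, the macrophage and B cell markers to the left, and the adipocyte list lies around 0 with a median of -0.053. Dashed lines mark a fold of 2.

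The partners, targets and neighbours of the 10 genes were taken from 6 lists of 135 further genes, of which 119 were measured. Of these, 12 were called higher and 0 lower by limma, beside 7.43% and 3.13% of all genes. At an adjusted p under 0.05 with no fold threshold the counts were 21 and 7. The median log2 fold change was 0.15, beside 0.085 for all genes, and 49 of the 119 were below the silent-gene level in both genotypes. The lists overlap in a few genes, such as *Fabp4* and *Angptl4*, and each gene is counted once in these totals. Genes named below that were not called were picked for their known roles with their values in view.

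None of 15 PPAR partners (retinoid X receptors, coactivators and corepressors) was called, and the list's median was -0.096. *Rxra*, the main partner of PPARs in myeloid cells, read 6.07 and 6.12 in *lal+/+* and 6.37 and 6.28 in *lal−/−*, a log2 fold change of 0.23 (adjusted p = 0.237). The *lal+/+* arrays were below the silent-gene level of 6.79 and the *lal−/−* arrays close to that of 6.29. The change therefore says little about *Rxra*. *Rxrb* differed by 0.60 (adjusted p = 0.0351) and *Crebbp*, a coactivator with acetyltransferase activity, by -0.72 (adjusted p = 0.0255), both under a fold of 2. The *lal+/+* mean of *Rxrb*, 6.17, was below the silent-gene level. *Ppargc1a*, the coactivator of mitochondrial biogenesis, differed by -0.54 (adjusted p = 0.0679) at levels from 5.15 to 5.86, in the range of silent genes.

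Of 24 genes known as PPAR targets 2 were higher and none lower, a share near the 7.43% of all genes called higher, and the median was 0.14. Both that rose encode mitochondrial enzymes of fatty acid oxidation. *Acaa2*, the thiolase of the last step, rose by 1.19 on the log2 scale (SE 0.12, adjusted p = 0.00515), and *Cpt2*, the inner membrane carnitine palmitoyltransferase, by 1.02 (SE 0.24, adjusted p = 0.0433). The call of *Cpt2* was lost with a replicate block (adjusted p = 0.0883) and without any 1 of the 4 arrays. *Fabp4*, a lipid chaperone widely used as a readout of PPARγ, was not called (0.35, adjusted p = 0.326). *Angptl4* (0.18, adjusted p = 0.499) and *Pdk4* (0.10, adjusted p = 0.723), targets common to several PPARs, were at or below 6.30 on every array. *Cpt1a*, the outer membrane carnitine palmitoyltransferase, had a change of -0.072 (adjusted p = 0.771), which turned to 0.35 with the common median.

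Among 23 genes of fatty acid uptake and activation 1 was called, with a list median of 0.15. *Slc27a4*, a fatty acid transporter with acyl-CoA synthetase activity, rose by 1.28 on the log2 scale (SE 0.22, adjusted p = 0.0187). It read 6.68 and 7.17 in *lal+/+* and 8.35 and 8.06 in *lal−/−*, and its call was lost without either *lal−/−* array. The acyl-CoA synthetase genes *Acsl4* (0.60, adjusted p = 0.154) and *Acsl5* (0.53, adjusted p = 0.0873) did not pass the test, though *Acsl5* was called higher with the common median (1.15, adjusted p = 0.0115). *Dbi*, the acyl-CoA binding protein, differed by 0.86 (adjusted p = 0.0146), under a fold of 2, and was called higher with the common median (1.49) and as deposited (1.31). *Gpihbp1*, which anchors lipoprotein lipase to capillaries, had a change of -0.55 (adjusted p = 0.111).

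The steps of glycerolipid synthesis ahead of DGAT1 and DGAT2 were read by 18 genes, of which 2 were higher and none lower, with a median of 0.29. *Agpat2*, which acylates lysophosphatidic acid, had a log2 level of 5.88 and 5.55 in *lal+/+*, below the silent-gene level, and 8.65 and 8.73 in *lal−/−*. Its measured log2 fold change was 2.98 (SE 0.16, adjusted p = 0.00271), and the level was at least 3.75-fold higher. *Gpat3*, one of the glycerol-phosphate acyltransferases of the first step, rose by 1.24 (SE 0.12, adjusted p = 0.00525). *Gpat4*, which encodes another, was not called (0.51, adjusted p = 0.106). Of the other AGPAT genes, *Agpat1* fell just short of the fold threshold (log2 fold change 0.997, 1.996-fold, adjusted p = 0.00970). Its *lal+/+* mean of 6.68 was below the silent-gene level. It was called higher with the common median (1.20), as deposited (1.03) and without *lal+/+* replicate 2 (1.15). *Agpat3* had the opposite sign (-0.83, adjusted p = 0.0222). The phosphatidate phosphatase genes *Lpin1* (-0.13, adjusted p = 0.479) and *Lpin2* (-0.50, adjusted p = 0.0515), which make the diacylglycerol used by the DGAT enzymes, were not called.

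Of 18 lipid droplet proteins 2 were higher and none lower, with a median of 0.14. *Rab18*, a small GTPase found on droplets, rose by 1.91 on the log2 scale (SE 0.26, adjusted p = 0.0109), and *Hsd17b11*, a droplet dehydrogenase, by 1.39 (SE 0.12, adjusted p = 0.00422). The *lal+/+* arrays of *Rab18* stood apart at 7.29 and 6.57, and its call was lost without either *lal−/−* array. *Plin3*, a perilipin of small droplets, differed by 0.71 (adjusted p = 0.0196) and was called higher with the common median (1.03). *Bscl2*, which encodes seipin and acts in droplet formation, differed by 0.66 (adjusted p = 0.0697). *Plin1*, the perilipin of fat cells, had a change of -0.21 (adjusted p = 0.443), and *Hilpda*, an inhibitor of ATGL, of -0.53 (adjusted p = 0.0363), under a fold of 2.

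Of 24 neutral lipases and their regulators 5 were called, all higher, where 7.43% of all genes were, and the median was 0.20. Whether this list differs from the others was not tested. *Lipg*, endothelial lipase, read 5.69 and 5.72 on the *lal+/+* arrays, below the silent-gene level, and 8.78 and 8.77 on the *lal−/−* arrays. Its measured log2 fold change was 3.07 (SE 0.11, adjusted p = 0.00201), and the level was at least 3.97-fold higher. *Pnpla8*, a calcium-independent phospholipase of the same family as ATGL, rose by 2.24 (SE 0.17, adjusted p = 0.00341), and *Pnpla1*, a family member known from skin, by 1.52 (SE 0.11, adjusted p = 0.00341). *Nceh1*, a neutral hydrolase of cholesteryl esters, read 6.53 and 6.19 in *lal+/+* and 7.86 and 8.08 in *lal−/−* and rose by 1.61 (SE 0.17, adjusted p = 0.00643). *Pnpla1* and *Nceh1* were below the silent-gene level in *lal+/+* cells, and their levels were at least 1.22-fold and 2.28-fold higher.

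The regulators of ATGL were read beside *Pnpla2*, whose own level overlapped between the genotypes. *Abhd5* encodes CGI-58, the coactivator of ATGL, and read 8.79 and 8.89 on the *lal+/+* arrays against 11.27 and 11.30 on the *lal−/−* arrays. It rose by 2.44 on the log2 scale (SE 0.12, adjusted p = 0.00264), a 5.44-fold higher level. *G0s2*, which encodes an inhibitor of ATGL, read 10.03 and 9.91 in *lal+/+* and 10.90 and 11.04 in *lal−/−*. Its log2 fold change of 0.999 (SE 0.13, adjusted p = 0.00933) was 1.999-fold, under the threshold, and it was called higher with the common median (1.62), as deposited (1.44) and without *lal+/+* replicate 1 (1.05). *Lipe*, hormone-sensitive lipase, which acts between ATGL and monoacylglycerol lipase, read 6.76 and 6.66 in *lal+/+* and 6.79 and 6.93 in *lal−/−*, a change of 0.15 (adjusted p = 0.441). The *lal+/+* mean of *Lipe*, 6.71, was below the silent-gene level. *Pde3b*, a phosphodiesterase that lowers the cyclic AMP that turns lipolysis on, had a change of -0.78 (adjusted p = 0.0359), under a fold of 2, and was called lower without *lal+/+* replicate 2 (-1.0).

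**Figure D4:**
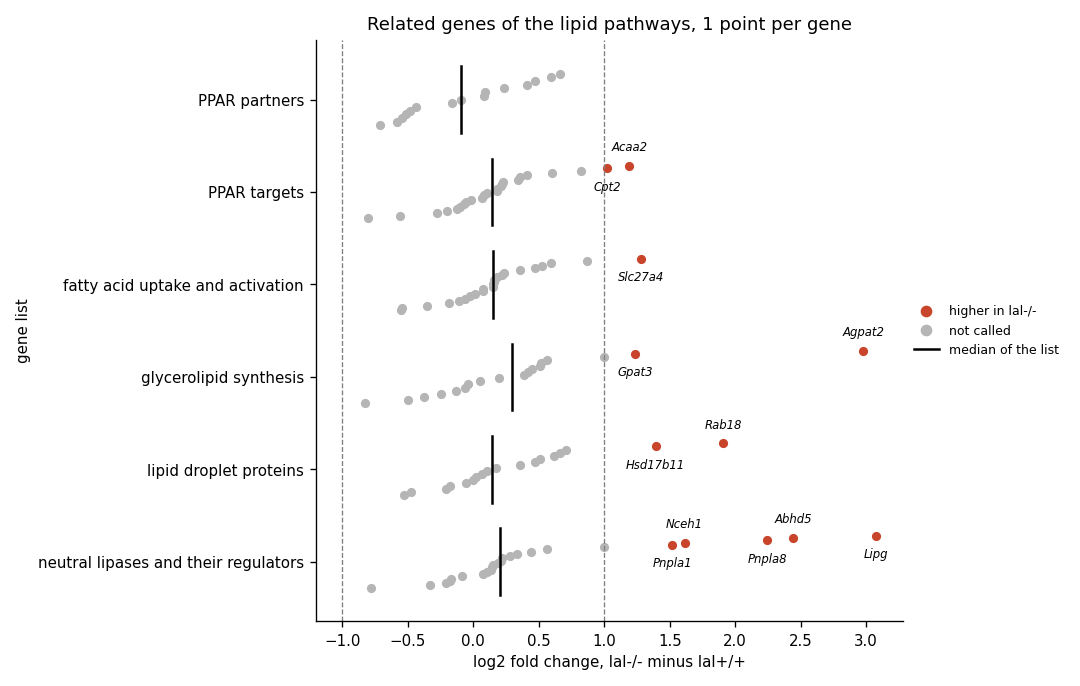
Log2 fold change, *lal−/−* minus *lal+/+* (x axis), of the 119 related genes by list (y axis), with 1 point for each gene and list, red and named where called higher and grey where not called, and a black bar at the median of the list. Dashed lines mark a fold of 2. No point is called lower. *Abhd5* (2.44) and *Pnpla8* (2.24) lie far to the right with levels above those of silent genes in both genotypes, whereas *Lipg*, *Agpat2*, *Nceh1* and *Pnpla1* were below that level in *lal+/+* cells, so that their points have no order.

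Promoter sequence was read from RefSeq windows on GRCm38.p6, each from 250 bases before to 50 bases after a gene's start. They cover 7 of the 10 genes with 10 windows, of which 3 belong to *Pparg* and 2 to *Mgll*. The letters searched, on both strands, were AGGTCA, the half-site that PPARs and other nuclear receptors bind, and CACGTG, the E-box of basic helix-loop-helix factors, which include regulators of lipogenic and lysosomal genes. The matches found in these genes do not overlap each other. Other motifs had been looked at before these were chosen. The half-site was found in 4 of the 10 windows (3 of 7 genes) and in 16.3% of all 32851 windows, and the E-box in 2 windows and in 7.15% of all. An exact direct repeat of the half-site with 1 base between, the letters of the full PPAR element, was in 0 of the 10 windows and in 0.0396% of all. So rare a match was unlikely in 10 windows, and imperfect repeats were not searched. Its absence therefore says nothing about PPAR elements of these genes. The stretches around every half-site found in these genes, and around the E-box of *Mgll*, are shown 5′ to 3′ on the strand of the gene. The *Mgll* stretch was picked because *Mgll* was called higher, so an E-box beside a rise is no result. The E-box of *Plin2*, which was not called, is not printed. Capitals mark the match, and TGACCT is the half-site on the other strand.
*Pparg*, chr6:115361089-115361148, plus strand: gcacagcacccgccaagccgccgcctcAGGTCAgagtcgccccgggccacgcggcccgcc
*Pparg*, chr6:115362313-115362372, plus strand: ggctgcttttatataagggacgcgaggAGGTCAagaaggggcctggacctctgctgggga
*Cd36*, chr5:17836092-17836146, minus strand: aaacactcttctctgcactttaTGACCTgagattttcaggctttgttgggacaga
*Plin2*, chr4:86670245-86670304, minus strand: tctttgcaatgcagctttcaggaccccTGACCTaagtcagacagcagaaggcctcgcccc
*Mgll*, chr6:88724341-88724400, plus strand: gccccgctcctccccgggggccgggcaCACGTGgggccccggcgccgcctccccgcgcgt

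The first base of the match lies 28 bases before the start in the first *Pparg* window and 9 in the second, 228 in *Cd36*, 218 in *Plin2* and 44 in *Mgll*. Of the 3 genes with a half-site, *Pparg* and *Cd36* were lower in *lal−/−* cells and *Plin2* was not called. *Plin2* also holds an E-box, 4 bases before its start. A match is a description of letters and not a bound site, and the arrays measured no binding. The array's gene models and these windows may not start at the same base.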

How the data were processed

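RNA of bone marrow MDSCs, Ly6G+ by the methods, was hybridized to 4 Affymetrix mouse gene arrays, 2 of each genotype, grouped by the titles. Per the methods and the deposited labels, the authors used RMA in Partek Genomics Suite to summarize the scans, and the deposited values are log2 levels of 35557 probe sets; the submitters' processing notes name GCOS 1.1. For the genome build, nothing is given in the sources used here. The labels name NuGEN kits for labelling and the methods an Affymetrix kit. No column was left out. Deposited medians ran from 6.15 to 6.36, a spread above the 0.1 allowed, so the columns were quantile normalized.

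GEO's platform annotation names 1 gene for 21789 probe sets and several for 1621, and lists no entry for 12147. Symbols of 21698 probe sets were updated through RefSeq and 91 kept. For 999 genes with several probe sets the one with the highest mean was used. A model of genotype was fitted to all probe sets with limma 3.58.1 in R 4.3.3 (prior degrees of freedom 2.71, residual 2), with Benjamini-Hochberg adjustment over probe sets naming 1 gene. 35.7% of genes had an unadjusted p under 0.05. The thresholds are those of the methods, whose tissue term cannot be fitted to 1 tissue. Only 4 arrays limit the precision. Differences between genes within an array were compared by exact permutation. The procedure was tested on simulated data.

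The 10 genes, the 6 related and 11 marker lists and the tests were chosen with earlier results of these data known. The rule for named genes took the 10, *Lipa*, *Lipe*, *Abhd5*, *G0s2*, *Rxra*, *Nceh1*, up to 4 called genes of each related list in each direction and up to 3 markers of a list by size. The other genes named were chosen for their roles after their values were seen. *Soat1* was in this set and, like 15 further related genes, had no probe set naming it alone. Alternatives were scaling (common median; values as deposited), dim probe sets left out (those under the median level), adjustment over every probe set, eBayes with trend and robust variances, a plain linear model, a replicate block, thresholds (fold not used; adjusted p under 0.01), averaging a gene's probe sets, and leaving out each array. A crossed pairing and a fit to probe sets naming 1 gene were added after seeing the data.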

Additional observations from a re-analysis of the deposited data

How the results depend on the processing

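With a common median for all arrays, 5 of the 10 genes were higher and 1 lower (3 and 2 in the reported fit), and 20 related genes were higher (12 in the reported fit). An ordinary linear model without moderated variances called 0 of the 10 genes and 0 of the related genes in either direction, as it did for all genes, although 5691 of all genes and 6 of the 10 had an unadjusted p under 0.05. Without the fold threshold, 21 related genes were higher and 7 lower. Over the arrays left out in turn, 3 to 4 of the 10 genes were higher, 1 to 2 lower, and 0 to 1 related genes lower. Over these arrays *Pnpla2* ran from -0.12 to 0.055, *Cpt1a* from -0.23 to 0.078, *Pdk4* from -0.055 to 0.26 and *Angptl4* from -0.012 to 0.39. The sign also turned for *Pnpla2* (0.42 with the common median, 0.25 as deposited), *Cpt1a* (0.35 and 0.17), *Pdk4* (-0.16 as deposited) and *Dgat1* minus *Dgat2* (0.17 in both). For *Dgat1* minus *Dgat2* both settings are 1 result, because a shift of a whole array cancels. The cause of these differences was not tested.

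The replicate numbers did not pair the arrays. The correlation of the differences between replicates 1 and 2 in the genotypes was -0.16 over probe sets after quantile normalization. A replicate block gave 3 higher and 2 lower of the 10 genes, 11 related genes higher, and 1439 higher and 596 lower genes in all. The crossed pairing, chosen after seeing the data, gave 3 and 2 of the 10, 12 related genes higher, and 1488 higher and 631 lower in all. Over all genes the alternatives with any call gave 1200 to 4410 calls, beside 2107 in the reported fit; the highest is that without the fold threshold, and the lowest that without *lal−/−* replicate 1. *Ppara* was not tested when probe sets under the median level were left out. Of 937 values of the 59 named genes under the alternatives, 855 kept their direction and their side of the threshold, 43 lost a call, 28 gained one and 11 turned sign. *Cd36*, *Dgat1*, *Dgat2* and *Mgll* lost their call with the ordinary linear model only. Changes from or to the level of silent genes limit what the arrays can show for *Ppara*, *Cd36*, *Dgat2*, *Mgll*, *Lipg*, *Agpat2*, *Nceh1* and *Pnpla1*. *Pparg* in *lal−/−* and *Ppard* in *lal+/+* cells were also close to that level. The same holds for related genes that were not called, such as *Rxra*, *Rxrb*, *Ppargc1a*, *Angptl4*, *Pdk4*, *Agpat1* and *Lipe*.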
